A study of Mus musculus with 2 samples.

Results

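Among the 1900 miRNA probes of the array, 6 were followed here. They measure mmu-miR-709 and mmu-miR-762 (mmu for mouse, left out from here on), both arms of the miR-1247 hairpin (mmu-miR-1247-3p and mmu-miR-1247-5p) and both arms of the miR-3072 hairpin (mmu-miR-3072-5p and mmu-miR-3072-3p). They were chosen by name, as 4 of the miRNAs that the text of the study names, together with the opposite arms of the same hairpins, and all 6 probes were found, with 1 spot each. miR-709 and miR-1247-3p had been picked by the study from the ratios of these same arrays, so their ratios are a description and carry no test. Extracellular vesicles (EVs) were isolated from the plasma of male C57BL/6 mice, a strain that recovers its hindlimb blood flow, and of male BALB/c mice, a strain that does not. All mice were wild type, 8 weeks old and operated on: the left femoral vessels were ligated and cut, and blood was drawn after 24 h. The RNA of 5 mice was pooled for each strain and hybridised to 1 array, so that neither an SD nor a p-value between the strains can be given, and no unligated mice were measured.

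A miRNA gene is transcribed into a hairpin, which is cut into a 5p arm and a 3p arm. Usually 1 arm is loaded into an Argonaute protein and finds its target mRNAs mainly through its seed, bases 2 to 8 counted from the 5′ end. VEGF, the main growth factor of blood vessels, has been described as a target of miR-762 and miR-3072-5p. Plasma EVs come from blood cells, platelets, endothelium and other tissues, and their miRNAs are a mixture of all these sources.

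The mature sequences are shown because the seed and the base composition differ sharply between the arms. They were read from RefSeq's annotation of the mouse assembly GRCm38.p6, matched by name, with the seed in capitals.
miR-1247-3p: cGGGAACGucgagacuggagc
miR-1247-5p: aCCCGUCCcguucguccccgga
miR-762: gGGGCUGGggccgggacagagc
miR-3072-5p: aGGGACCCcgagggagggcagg
miR-3072-3p: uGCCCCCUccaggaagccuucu
The seed of miR-762 was also that of miR-7648-3p and of miR-6940-5p, whereas none of the other 4 seeds occurred in another array miRNA with a sequence. The mates of miR-762 are given to show how far the likeness goes past the seed.
miR-7648-3p: aGGGCUGGgcccgggacgcgg
miR-6940-5p: aGGGCUGGcuggaagguuuuucg

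In that annotation the miR-1247 and miR-3072 genes lie on chromosome 12, in the imprinted Dlk1-Dio3 domain. miR-3072-5p is at chr12:109747893-109747914 and miR-3072-3p at chr12:109747928-109747949, both on the plus strand and inside Mirg, a long noncoding RNA gene that carries many miRNAs of the domain. miR-1247-5p is at chr12:110278094-110278115 and miR-1247-3p at chr12:110278058-110278078, both on the minus strand. The miR-1247 gene overlaps the end of Dio3os, a long noncoding RNA gene beside Dio3, which encodes an enzyme that inactivates thyroid hormone. miR-762 is at chr7:127708534-127708555 on the plus strand, within the bounds of Bcl7c, which encodes a subunit of chromatin remodelling complexes. The gene of miR-709 lies within the bounds of Rfx1 on chromosome 8. Whether these places are exonic or intronic was not determined here.

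RNA was labelled with Cy5, and the brightness of each spot is in arbitrary units. A probe was called detected when its spot was more than 2 SD brighter than the mean of 896 empty BLANK spots, trimmed by 5% at each end. This threshold was 106 on the C57BL/6 array and 111 on the BALB/c array. The background mean was then subtracted, and both arrays were scaled to a common 75th percentile of the 178 miRNAs detected in both strains, which divided the ratio of C57BL/6 to BALB/c by 5.32. The 2 kinds of spike control spots differed by less, with the C57BL/6 array 1.71 and 1.91 times as bright as the BALB/c array. Brightness is compared for each probe between the arrays, not as abundance between probes, since probes bind differently.

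All 6 miRNAs were detected in C57BL/6 EVs and 4 of them in BALB/c EVs. Over the whole array, 33.6% of the miRNA probes were detected in C57BL/6 EVs, 9.84% in BALB/c EVs and 9.37% in both. miR-709, miR-1247-3p, miR-762 and miR-3072-5p were detected in both strains. miR-1247-5p and miR-3072-3p, the opposite arms, were detected only in C57BL/6 EVs, as were 24.2% of all miRNA probes.

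**Figure D1:**
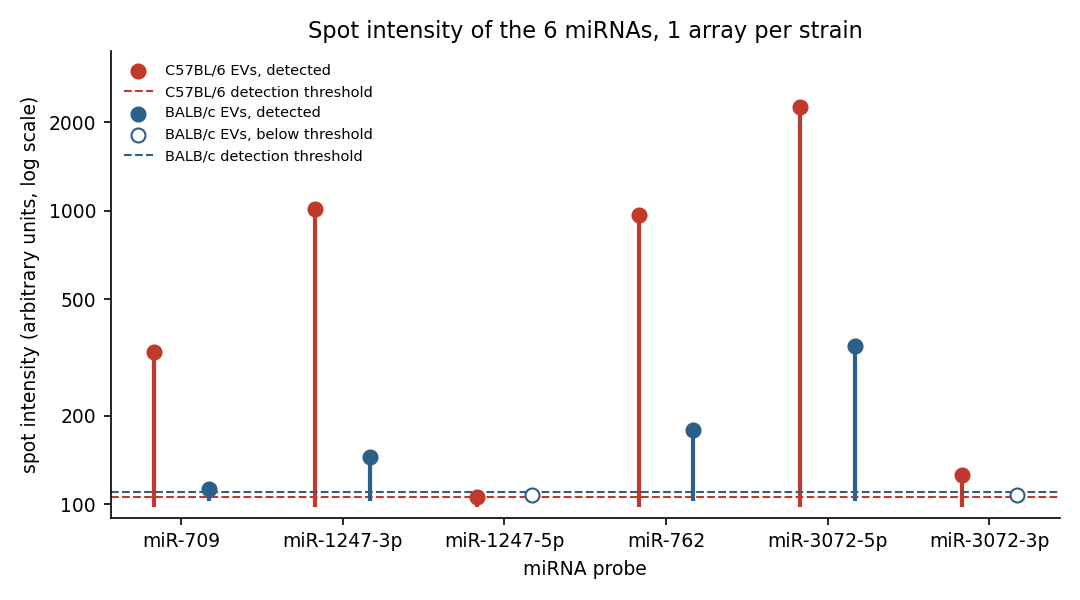
Spot intensity (arbitrary units, log scale) of the 6 miRNA probes on the C57BL/6 array (red, left of each pair) and the BALB/c array (blue, right), with stems rising from the background mean and dashed lines at the detection thresholds of 106 (C57BL/6) and 111 (BALB/c). miR-1247-5p sits at the threshold in C57BL/6, and the open circles mark the 2 opposite arms that were below it in BALB/c.

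miR-709 had a spot intensity of 331 in C57BL/6 EVs and 113 in BALB/c EVs. These values lay 64.2 SD above the background on the C57BL/6 array and 2.57 SD above it on the BALB/c array, so that the C57BL/6 spot was clear and the BALB/c spot was close to the threshold. On the BALB/c array, 22 of 896 BLANK spots (2.46%) and 1 of 174 spots with no probe were at least as bright as miR-709, and none of 32 negative control spots was. On the C57BL/6 array no spot of these 3 kinds was. The intensity measured around the miR-709 spot was 252 in C57BL/6 and 103 in BALB/c. The spot was thus 1.31 times as bright as its surroundings in C57BL/6 and 1.10 times in BALB/c, while the medians of the BLANK spots were 1.26 in C57BL/6 and 1.20 in BALB/c. Of the 8 adjacent spots, 5 were above the threshold in C57BL/6 and 3 in BALB/c. The brightest was miR-710 at 266 in C57BL/6 and miR-142a-5p at 142 in BALB/c. The part of the neighbours in the miR-709 signal was not tested. At a limit of 3 SD, or with the local background subtracted, miR-709 was not detected in BALB/c.

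miR-1247-3p was clear of the BLANK spots in both strains, with a spot intensity of 1011 in C57BL/6 EVs and 145 in BALB/c EVs. It lay 252 SD above the background in C57BL/6 and 10.7 SD in BALB/c. Its opposite arm miR-1247-5p had 106 in C57BL/6 EVs and 107 in BALB/c EVs, which was 2.06 SD above the C57BL/6 background and 1.21 SD above that of BALB/c. In C57BL/6, 50 of 896 BLANK spots (5.58%) were at least as bright as this arm, so that its detection call could not be told from empty spots. The 2 arms are next to each other on the array. The miR-1247-3p spot was 1.51 times as bright as its surroundings in C57BL/6 and 1.19 times in BALB/c. The medians of the BLANK spots were 1.26 in C57BL/6 and 1.20 in BALB/c. With the local background subtracted, miR-1247-3p was no longer detected in BALB/c.

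miR-762 had a spot intensity of 966 in C57BL/6 EVs and 180 in BALB/c EVs, at 240 SD above the background in C57BL/6 and 19.3 SD in BALB/c. Of its seed mates, miR-7648-3p had 624 in C57BL/6 EVs and 155 in BALB/c EVs, and miR-6940-5p, with 100.4 in C57BL/6 and 105 in BALB/c, was detected in neither strain. A shared seed therefore went with detection of miR-7648-3p but not of miR-6940-5p.

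miR-3072-5p was the brightest of the 6 spots on both arrays, with 2250 in C57BL/6 EVs and 346 in BALB/c EVs. It lay 594 SD above the background in C57BL/6 and 60.5 SD in BALB/c. The opposite arm miR-3072-3p had 126 in C57BL/6 EVs and 108 in BALB/c EVs, at 7.61 SD in C57BL/6 and 1.26 SD in BALB/c. It was therefore clear of the BLANK spots in C57BL/6, where 1 of 896 was as bright, and lay among them in BALB/c, where 145 were (16.2%). The adjacent spot of miR-2861 had 4784 in C57BL/6 EVs and 543 in BALB/c EVs, and its part in the signal of miR-3072-3p was not tested.

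**Figure D2:**
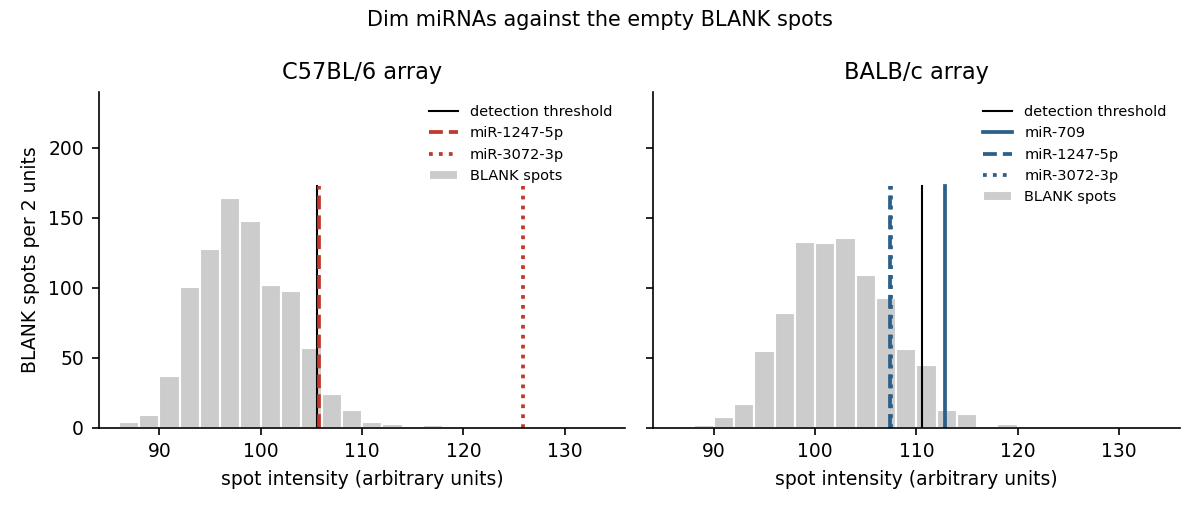
Number of BLANK spots by spot intensity (arbitrary units, bars of 2 units) on the C57BL/6 array (left) and the BALB/c array (right), with a black line at the detection threshold and coloured lines at the dim miRNAs. miR-709 lies in the upper tail of the BLANK spots on the BALB/c array and is off the scale at 331 on the C57BL/6 array, while miR-1247-5p lies at the threshold in C57BL/6.

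The 4 miRNAs detected in both strains all had a higher scaled signal in C57BL/6 EVs, and 3 of them were more than 2-fold higher. Among all 178 miRNAs detected in both strains, 41.6% were higher in C57BL/6 and 21.3% were more than 2-fold higher. The counts of the 4 are only a description, because the study had picked miR-709 and miR-1247-3p for high ratios on these arrays. For miR-709 the scaled signal was 100.7 in C57BL/6 EVs and 23.8 in BALB/c EVs, a ratio of 4.23. When both signals were moved by 2 SD of the BLANK background, it ran from 2.30 to 19.7. miR-1247-3p had a scaled signal of 395 in C57BL/6 EVs and 98.9 in BALB/c EVs, a ratio of 4.00 with a range of 3.34 to 4.96. This range lay wholly within that of miR-709, and the order of the 2 ratios was not resolved. miR-762 had a scaled signal of 376 in C57BL/6 EVs and 178 in BALB/c EVs, a ratio of 2.11 (range 1.89 to 2.37). miR-3072-5p had 933 in C57BL/6 EVs and 561 in BALB/c EVs, a ratio of 1.66 (range 1.60 to 1.72). The ranges of miR-762 and miR-3072-5p did not overlap each other, that of miR-762 overlapped the low end of miR-709, and both lay below that of miR-1247-3p. The ranges cover only the spread of the empty BLANK spots on 1 array, not the noise of bright spots or the difference between mice. With 1 spot for each probe, the noise of bright spots was not measured.

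The size of these ratios depends on the scaling of the arrays, which also moves all other miRNAs. On the scale of the authors' values, the ratio was 27.0 for miR-709, 25.5 for miR-1247-3p, 13.4 for miR-762 and 10.6 for miR-3072-5p. The ratios of miR-709 and miR-1247-3p were more than 20-fold on that scale, as were 6.74% of the 178 miRNAs. The last miRNA inside that limit was miR-6244 with 20.2-fold and the first outside was miR-7081-5p with 19.8-fold. Scaling each array on its own detected miRNAs gave the same ratios as the authors' values, and without scaling both miRNAs were also above 20-fold. On each other scale none of the 4 was. With normexp and quantile normalization the ratio of miR-3072-5p was 1.00, because its spot had place 14 among the 1900 on both arrays. The median log2 ratio of all 178 miRNAs was -0.44 for the scaled signals and 2.23 for the authors' values. Relative to that median, which removes any single factor, miR-709 was higher in C57BL/6 EVs by 2.52 on the log2 scale. miR-1247-3p was higher by 2.44, miR-762 by 1.51 and miR-3072-5p by 1.17. With normexp and quantile normalization these offsets were smaller, at 1.31, 1.68, 0.83 and 0.27 in the same order. With the local background subtracted they were 1.08 for miR-762 and 0.78 for miR-3072-5p. For the scaled signals, the ratio of miR-709 took place 3 among the 178, miR-1247-3p place 5, miR-762 place 33 and miR-3072-5p place 54. The median log2 ratio of the 4 was 1.54 after scaling.

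**Figure D3:**
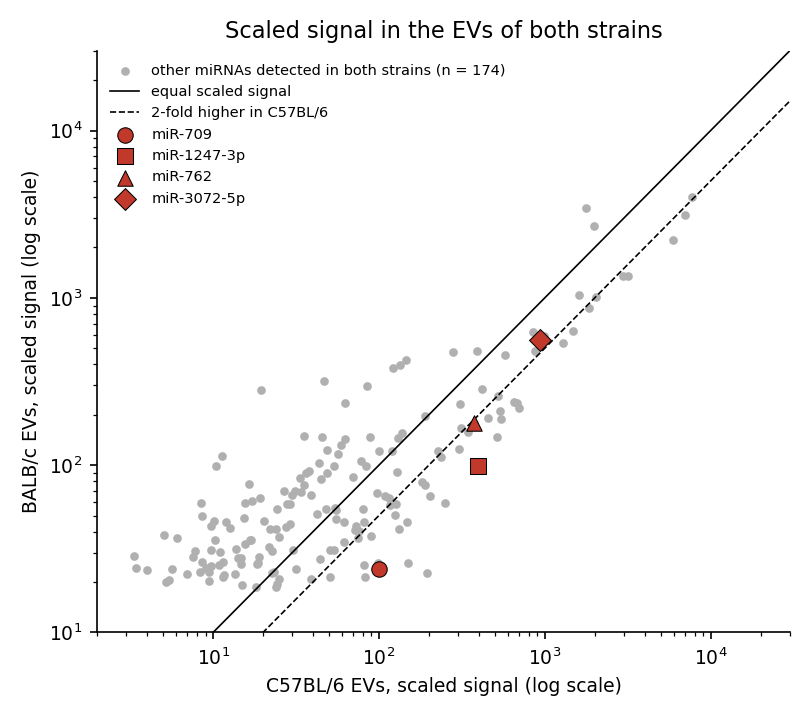
Scaled signal above background in C57BL/6 EVs (horizontal) and the BALB/c EVs (vertical), both on log scales, for the 178 miRNAs detected in both strains. miR-709 and miR-1247-3p lie below the dashed 2-fold line with ratios of 4.23 and 4.00, miR-762 lies just past it at 2.11, and miR-3072-5p lies between it and the line of equal signal at 1.66.

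For the opposite arms no ratio was formed, because the BALB/c signal was below the threshold. With the dimmest detected BALB/c probe as the limit, the authors' scale gave a C57BL/6 signal at least 4.09-fold higher for miR-3072-3p. This bound was below the median ratio on that scale of the 178 miRNAs detected in both strains, 4.71. No bound is given for miR-1247-5p, whose C57BL/6 spot was as dim as many BLANK spots. After scaling on the shared miRNAs, both C57BL/6 signals were below that BALB/c limit, so that no bound can be given for either arm. The bound leaves out spot noise, and miR-3072-3p lost its C57BL/6 call with the local background subtracted.

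Of 726 hairpins with both arms on the array, 110 (15.2%) had both arms detected in C57BL/6 EVs and 6 (0.826%) in BALB/c EVs. The miR-1247 and miR-3072 hairpins were among 40 that had both arms detected in C57BL/6 and 1 arm in BALB/c. The arm left in BALB/c was the 3p arm for miR-1247 and the 5p arm for miR-3072. In both hairpins it was the arm richer in G: G made up 42.9% of miR-1247-3p and 22.7% of miR-1247-5p, and 54.5% of miR-3072-5p and 18.2% of miR-3072-3p. Of the 33 such hairpins with both sequences at hand, the arm detected in BALB/c held more G in 27 (81.8%). Among all 99 hairpins with sequences and only 1 arm detected in BALB/c, it did in 68 (68.7%). Among 224 hairpins with sequences and only 1 arm detected in C57BL/6, the detected arm held more G in 128 (57.1%).

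Of the miRNAs detected in both strains, the 3 matched to RefSeq sequences were all rich in G, with 42.9% for miR-1247-3p, 54.5% for miR-3072-5p and 59.1% for miR-762. Over the 1614 array miRNAs with a sequence the median G share was 26.3%. It was 39.5% for those detected in both strains, 28.6% for those detected only in C57BL/6 and 25% for those detected in neither strain. The ratio of C57BL/6 to BALB/c was higher where the G share was higher. Over 150 miRNAs detected in both strains with a sequence, Pearson's r between G share and log2 ratio was 0.69 and Spearman's rho 0.73. For the share of G and C together r was 0.65 and rho 0.68. For that of A and G together r was 0.55 and rho 0.62. Both of these shares contain G, so they cannot tell whether the relation was one of G alone. All these points come from the same 2 arrays and are not independent, so no p is given. The correlation with the G share does not depend on any single scaling factor, and it was 0.62 with the normexp and quantile normalization. The median log2 ratio was -1.15 for 53 miRNAs with less than 30% G, -0.67 for 22 with 30% to 40%, 0.52 for 33 with 40% to 50% and 1.05 for 42 with 50% or more. None of the 53 miRNAs with the least G and 24 of the 42 with the most were more than 2-fold higher in C57BL/6. Among miRNAs more than 10 SD above the BALB/c background, the medians of these lowest and highest ranges were -1.09 (16 miRNAs) and 1.10 (24 miRNAs). The log2 ratio of miR-762, at 1.08, was near the median of its range of G share, and that of miR-3072-5p, at 0.73, was below the lower quartile of the same range, 0.80. That of miR-1247-3p, whose scaled ratio was 4.00, was above the upper quartile of its range, a log2 ratio of 1.24.

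**Figure D4:**
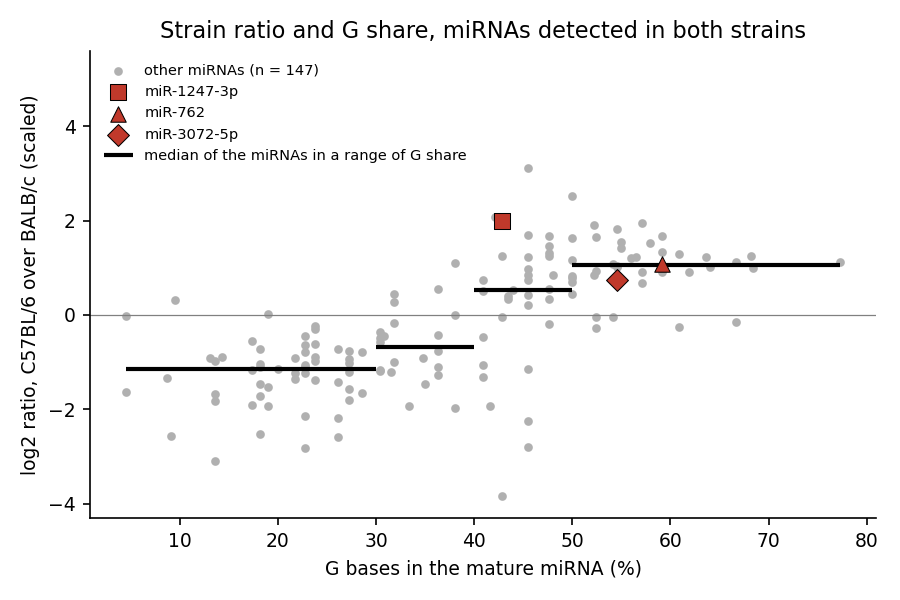
Log2 ratio of C57BL/6 to BALB/c after scaling (vertical) against the share of G in the mature miRNA (horizontal, %), for 150 miRNAs detected in both strains, with black lines at the medians of 4 ranges of G share. The medians climb from -1.15 to 1.05, and miR-762 lies near the median of its range, miR-3072-5p below it and miR-1247-3p above its own. miR-709 is not plotted.

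The miRNAs nearest to each of the 4 were taken by the distance between log2 scaled signals on both arrays, over the 178 miRNAs. Nearest to miR-709 were miR-671-5p (distance 0.14), miR-1894-3p (0.32) and miR-5132-5p (0.32), whose BALB/c spots of 114, 114 and 112 were as close to the threshold as its own. miR-1247-3p stood more apart, with miR-6944-5p nearest at 0.50. The nearest to miR-762 was miR-7045-5p at 0.22, and the nearest to miR-3072-5p was miR-6366 at 0.11.

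Apart from the 4 arms of miR-1247 and miR-3072, 22 of 109 probes of the Dlk1-Dio3 domain (20.2%) were detected in C57BL/6 EVs and 3 (2.75%) in BALB/c EVs. Over all miRNA probes of the array the shares were 33.6% in C57BL/6 and 9.84% in BALB/c. In both strains, miR-370-3p and miR-434-3p were detected beside miR-1247-3p and miR-3072-5p. miR-370-3p had a spot intensity of 215 in C57BL/6 EVs and 112 in BALB/c EVs (scaled ratio 2.35), and miR-434-3p had 107 in C57BL/6 and 113 in BALB/c (scaled ratio 0.169, and 1.08 on the authors' scale).

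Of 7 further miRNAs that the text of the study names, miR-93-5p and miR-126a-3p were detected in both strains, miR-494-3p only in C57BL/6 EVs and the other 4 in neither strain. miR-126a-3p, the abundant miRNA of endothelial cells, had 177 in C57BL/6 EVs and 133 in BALB/c EVs, a ratio of 0.492 after scaling and 3.14 on the authors' scale. miR-93-5p had 149 in C57BL/6 and 121 in BALB/c, a ratio of 0.533 after scaling and 3.399 on the authors' scale. The study used miR-186-5p to normalize its qPCR of miR-709 in cultured human cells and their EVs, not in mouse plasma EVs. On these arrays miR-186-5p had 104 in C57BL/6 EVs and 103 in BALB/c EVs and was below both thresholds. Of 6 erythrocyte miRNAs, which can enter plasma when red cells break, 5 were detected in each strain, with scaled log2 ratios of -1.15 to -0.61. Their summed signal above background was 5030 in C57BL/6 EVs and 1819 in BALB/c EVs before scaling. After scaling it was 2180 in C57BL/6 and 4197 in BALB/c. The platelet list held miR-223-3p, miR-21a-5p, miR-191-5p and again miR-126a-3p, so it was not separate from the endothelial miRNA above. All 4 listed platelet miRNAs were detected in both strains, with log2 ratios of -1.68 to -0.45. Their summed signal was 463 in C57BL/6 EVs and 184 in BALB/c EVs before scaling. After scaling the sum was 201 in C57BL/6 and 424 in BALB/c. Of the 2 liver miRNAs, 2 were detected in C57BL/6 and 1 in BALB/c, and of 3 muscle miRNAs 2 were detected in both strains, at log2 ratios of -3.32 and -1.92. Of these blood, liver and muscle miRNAs, none that was detected in both strains was higher in C57BL/6 after scaling. On the authors' scale each of them was, except miR-1a-3p of muscle (0.640). The part of these cells in the ratios of the 4 miRNAs was not tested.

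**Figure D5:**
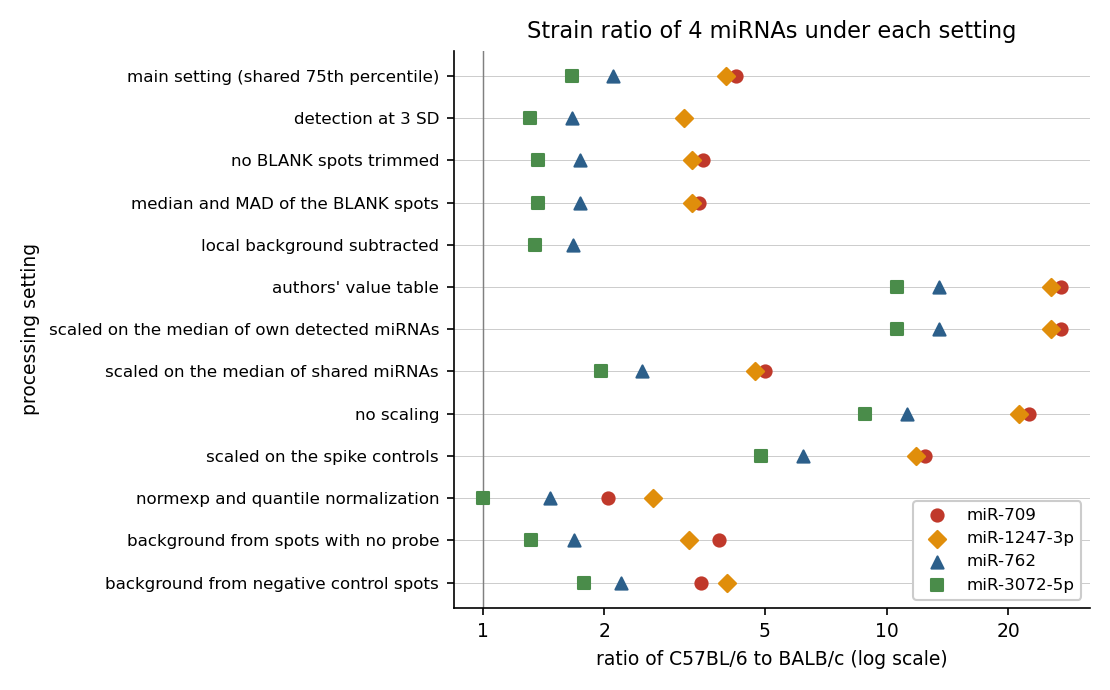
Ratio of C57BL/6 to BALB/c (horizontal, log scale) of the 4 miRNAs under each processing setting (rows, the main one on top); a missing point means that the miRNA was not detected in both strains there. All points lie at 1 or above, miR-709 and miR-1247-3p lie close together in most rows, and miR-709 has no point at 3 SD or with the local background subtracted.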

How the data were processed

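The deposited scanner intensity is the median Cy5 intensity at 635 nm of each of 3200 spots and of its surroundings, neither background-subtracted nor normalized. The authors' value table holds 1 processed intensity per detected miRNA. No source at hand states how it was made. Its detection calls and those made here differed for 0 probes. The labels give EVs as the source, but their extraction protocol speaks of cells and of another RNA kit than the exosome RNA kit of the methods. The BLANK spots kept after trimming numbered 806 on each array, with a mean of 98.3 (SD 3.62) for C57BL/6 and 102 (SD 4.02) for BALB/c. With 1 array per strain no test was made, and this number sets the limit of precision. The members, lists and settings were chosen with earlier results of these data known, and the miRNAs named follow fixed rules: the 6 miRNAs, seed mates, the 3 nearest miRNAs, adjacent spots, the miRNAs beside the 20-fold limit, the study's other miRNAs and blood, liver and muscle miRNAs; miR-370-3p and miR-434-3p were named after their values were seen. Sequences came from RefSeq (1614 of 1900 names matched). Seed matches in target mRNAs were planned but not searched here. The code was run on simulated intensities with a known shift. Alternatives changed the detection limit, the background, the scaling and the normalization (normexp with an offset of 50, then quantile). Python 3.11.15 (numpy 2.4.6, pandas 2.3.3, matplotlib 3.10.9) and R 4.3.3 with limma 3.58.1 were used.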

Additional observations from a re-analysis of the deposited data

How the results depend on the processing

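With 1 array per strain nothing could be left out, and no paired analysis was possible because each strain has 1 sample. Ratios are given in the order miR-709, miR-1247-3p, miR-762 and miR-3072-5p. In no setting was a ratio of these named miRNAs below 1. Under the alternatives, 43 values stayed close to the main one and 47 did not. Close means within the range from 2 SD of the BLANK spots for a ratio and within 1.5 times for a count or a median.

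Scaling alone moved the ratios to 27.0, 25.5, 13.4 and 10.6 (median log2 ratio 4.21) with the authors' values, and also when each array was scaled on its own detected miRNAs. They were 22.5, 21.3, 11.2 and 8.84 (median 3.95) with no scaling, and 12.5, 11.8, 6.22 and 4.90 (median 3.10) on the spike controls. On the median of the shared miRNAs, miR-762 had 2.49 and miR-3072-5p 1.96. With normexp and quantile normalization the ratios were 2.05, 2.64, 1.47 and 1.00 (median 0.79), so that miR-1247-3p passed miR-709 and miR-3072-5p was level between the strains.

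The detection limit decided miR-709. At 3 SD it was not detected in BALB/c, and the other 3 ratios were 3.15, 1.66 and 1.31, with 1 over 2-fold. Their median log2 ratio was 0.73, against -0.63 for all 140 miRNAs detected in both strains there. These 3 ratios fell because the scaling then rested on 140 shared miRNAs. With the local background subtracted, neither miR-709 nor miR-1247-3p was detected in BALB/c. This left 2 of the 6 miRNAs detected there, beside 78 of all 1900 probes, and 2 in both strains, beside 74. In C57BL/6, miR-1247-5p and miR-3072-3p were not detected, which left 4 of the 6, beside 254 of the 1900. The ratios of miR-762 and miR-3072-5p were then 1.67 and 1.35, and 0 were over 2-fold. Their median log2 ratio was 0.59, against -0.34 for all miRNAs detected in both strains there. With no BLANK spots trimmed, miR-1247-3p, miR-762 and miR-3072-5p had 3.31, 1.74 and 1.37, and with the median and the median absolute deviation of the BLANK spots 3.29, 1.74 and 1.37. miR-709 then lay 2.03 SD and 2.07 SD above the BALB/c background.

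The last 2 settings were added after the data were seen. With the background from spots with no probe, these 3 ratios were 3.25, 1.69 and 1.31. With the background from negative control spots, miR-3072-5p had 1.79, miR-1247-3p had 4.04, and miR-709 had 3.47 and lay 4.01 SD above the BALB/c background. All 6 miRNAs were then detected in BALB/c, beside 339 of the 1900 probes, against 187 in the main setting. With miR-3072-3p added, 5 of the 6 were detected in both strains, beside 265 of the 1900 probes. The median log2 ratio of these 5 was 1.14, against -0.66 for all miRNAs detected in both strains there. The ratio of miR-3072-3p in this setting is not given here. miR-1247-5p lost its call in C57BL/6 in each setting that changed the background or its limit.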
